A study of Mus musculus with 12 samples.

Results

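The constitutive proteasome subunits examined here are 35 genes of the 17012 tested, picked by symbol from bulk RNA sequencing of mouse eWAT, the white fat that surrounds the epididymis. They comprise 14 genes of the core particle (Psma1 to Psma7 and Psmb1 to Psmb7), 10 of the base (Psmc1 to Psmc6, Psmd1, Psmd2, Psmd4 and Adrm1), 8 of the lid (Psmd3, Psmd6, Psmd7, Psmd8, Psmd11, Psmd12, Psmd13 and Psmd14) and 3 of separate activators (Psme1, Psme2 and Psme4). All 35 were found and all 35 passed the filter on low counts. Partial hepatectomy that removed 70% of the liver preceded sampling by 3 days in 5 libraries and by 7 days in 3, and 4 libraries came from sham-operated mice. All mice are labelled male, 12 to 14 weeks old, of the strain C57bl6 (C57BL6/J in the series design). No transgene or allele is named for any group. The labels do not give the day on which sham mice were sampled, and the source field describes them as taken before hepatectomy. Each library is a separate animal.

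The proteasome degrades proteins tagged with ubiquitin. Its core particle is a stack of rings, alpha outside and beta inside, with the proteolytic sites on 3 beta subunits. The regulatory particle that caps it has a base of ATPases, which unfold the substrate and open the alpha ring, and a lid, which removes the ubiquitin chain. Interferon induces alternative beta subunits (Psmb8, Psmb9 and Psmb10) that replace the constitutive Psmb5, Psmb6 and Psmb7 in immunoproteasomes, and the activator ring of Psme1 and Psme2. When proteasome activity falls, the transcription factor NRF1 (Nfe2l1) raises transcription of the subunit genes through antioxidant response elements, and in brown fat of mice it is known for keeping proteasome supply up.

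To show what such elements look like at the genes described below, 4 promoter windows are given, each running from 250 bases before to 50 bases after a start site in the RefSeq promoter table (build GRCm38.p6, whereas the coordinates of genes elsewhere are mm39). Psmb5 encodes the chymotrypsin-like subunit and Psmb6 the caspase-like subunit. Both windows hold the antioxidant response element core TGACNNNGC, in capitals, beginning at position -47 and at position -9 from the start site. The second Psma6 window holds an ETS site, CCGGAAGT, here on the opposite strand at position 16. The Psme1 window holds a match to the interferon-stimulated response element core (GAAA, any 2 bases, GAAA) on the opposite strand at position 9.
Psmb5, chr14:54617946-54618245, minus strand: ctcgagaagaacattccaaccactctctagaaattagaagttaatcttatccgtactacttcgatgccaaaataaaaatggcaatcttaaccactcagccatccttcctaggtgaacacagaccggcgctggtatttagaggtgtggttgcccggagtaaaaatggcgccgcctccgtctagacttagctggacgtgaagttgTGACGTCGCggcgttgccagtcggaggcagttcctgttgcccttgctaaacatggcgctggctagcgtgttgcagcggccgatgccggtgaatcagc
Psmb6, chr11:70525107-70525406, plus strand: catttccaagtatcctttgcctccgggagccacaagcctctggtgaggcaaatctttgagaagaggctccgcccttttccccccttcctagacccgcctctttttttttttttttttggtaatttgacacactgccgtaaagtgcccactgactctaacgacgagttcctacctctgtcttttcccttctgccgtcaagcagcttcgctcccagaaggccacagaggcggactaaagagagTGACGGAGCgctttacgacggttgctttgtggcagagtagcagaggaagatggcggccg
Psma6, chr12:55398575-55398874, plus strand: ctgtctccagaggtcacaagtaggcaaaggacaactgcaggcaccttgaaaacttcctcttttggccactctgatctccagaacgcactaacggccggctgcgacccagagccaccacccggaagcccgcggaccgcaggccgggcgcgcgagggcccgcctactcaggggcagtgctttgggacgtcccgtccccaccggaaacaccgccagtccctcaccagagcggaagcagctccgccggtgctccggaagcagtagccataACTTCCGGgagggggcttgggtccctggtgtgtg
Psme1, chr14:55578244-55578543, plus strand: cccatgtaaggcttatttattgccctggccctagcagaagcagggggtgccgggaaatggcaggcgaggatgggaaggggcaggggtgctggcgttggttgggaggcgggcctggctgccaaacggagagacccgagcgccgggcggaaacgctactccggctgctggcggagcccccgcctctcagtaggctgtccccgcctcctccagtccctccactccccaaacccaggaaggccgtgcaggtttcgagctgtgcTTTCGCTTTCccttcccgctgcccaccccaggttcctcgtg
The table held windows for 29 of the 35 members; Psmb1, Psmb2, Psmb7, Psmc3, Psmd3 and Psmd7 had none. Searched on both strands, the antioxidant response element core stood in 6 of the 29 (20.7%: Adrm1, Psmb5, Psmb6, Psmc6, Psmd12 and Psme4), against 14% of all 27025 genes in the table. The interferon-stimulated core stood in 3 (10.3%: Psmb3, Psmd4 and Psme1), against 3.99% of all genes. The ETS site stood in 7 (24.1%: Psma6, Psmc1, Psmc2, Psmd6, Psmd12, Psmd13 and Psme4), against 4.31%. The GC box GGGCGG stood in 19 (65.5%), against 38.2%, and the CCAAT box in 11 (37.9%), against 41.1%. The background takes in genes whether or not they are expressed in this tissue, and a gene counts if any of its windows matches. Shares among expressed genes alone were not counted, so these contrasts may not be particular to proteasome genes. A match describes the letters of a window, and no binding was measured.

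Library totals lay between 13128853 and 23474246 counts. Several libraries stood apart before any proteasome gene was considered. Day 3 library 5 resembled the sham libraries (average r across genes 0.926) more than the other day 3 libraries (0.894), and day 7 library 1 resembled day 3 (0.908) more than its own group (0.869). Day 7 libraries 2 and 3 likewise resembled sham (0.916 and 0.918) more than their own group (0.892 and 0.905). Day 3 library 1 held 359 CPM of Xist and 0.643 CPM of the Y-linked Ddx3y, where every other library held at most 1.84 CPM of Xist and at least 81.1 CPM of Ddx3y, which goes against the label of male mice. Sham library 4 held 2315 CPM of the liver transcript Alb, where the other libraries held at most 192 CPM. The adipocyte markers Adipoq, Plin1, Lep, Cidec, Fabp4 and Pparg were all tested and summed to 17310 to 25260 CPM at day 3, 12780 to 17000 CPM at day 7 and 14380 to 21230 CPM in sham. Adipoq, the adipocyte hormone adiponectin, chosen after its values were seen, had 1502, 996, 960, 909 and 4331 CPM in day 3 libraries 1 to 5 and 328, 3523 and 2028 CPM in day 7 libraries 1 to 3, against 1595, 2103, 3967 and 4227 CPM in sham libraries 1 to 4. Day 3 libraries 1 to 4 and day 7 library 1 lay below every sham library, and the other hepatectomy libraries did not. The list did not move one way at day 3: Plin1, Cidec and Pparg had log2 differences of -0.44, -0.25 and -0.25, Lep had 0.30, and Fabp4 had 0.44 with every day 3 library above every sham library. By edgeR 0 of the 6 passed. Their part in the proteasome values was not tested. In bulk tissue, fewer cells of a type and less RNA per cell cannot be told apart.

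At day 3, most subunits of the core, base and lid stood above sham, by a modest amount at the median. Of these 32 genes, 30 had a positive log2 difference (48.3% of all genes tested), with a median of 0.39 or 1.31-fold, where the median over all genes was -0.02. The medians were 0.43 for the core, 0.34 for the base and 0.42 for the lid. Within each sub-complex the genes spread more widely than that: -0.08 to 0.65 in the core, -0.16 to 0.50 in the base and 0.20 to 0.60 in the lid. Single genes did not pass the test: by edgeR's quasi-likelihood test 0 of 35 members had an adjusted p under 0.05 (lowest 0.403), against 0.00588% of all genes. At an unadjusted p under 0.05, 18 of 35 members were higher, against 5.9% of all genes, and 1 was lower, against 4.97%. DESeq2 called 122 genes in all, 2 of them members, Psmb3 (adjusted p = 0.0108) and Psma6 (0.0209). The authors' deposited table gave the same 2 a false discovery rate under 0.05 (0.0366 for Psmb3 and 0.0445 for Psma6). Those values come from the same libraries, and the submitters' notes also name DESeq2, so they are not separate evidence. In 9 of the 32, every day 3 library lay above every sham library (1.58% of all genes), and in 0 every day 3 library lay below (2.14%). Scaled by library totals alone, 2 of the 32 were higher without overlap at day 3. The share over all genes was not counted for that scaling. With TMM scaling the 9 were Psma1, Psma2, Psma6, Psmb2, Psmb3, Psmb7, Psmd1, Psmd6 and Psmd14. Psma2 overlaps AW209491 by 8944 bases on the same strand, a gene that averaged 187 counts, so the value of Psma2 is uncertain.

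**Figure D1:**
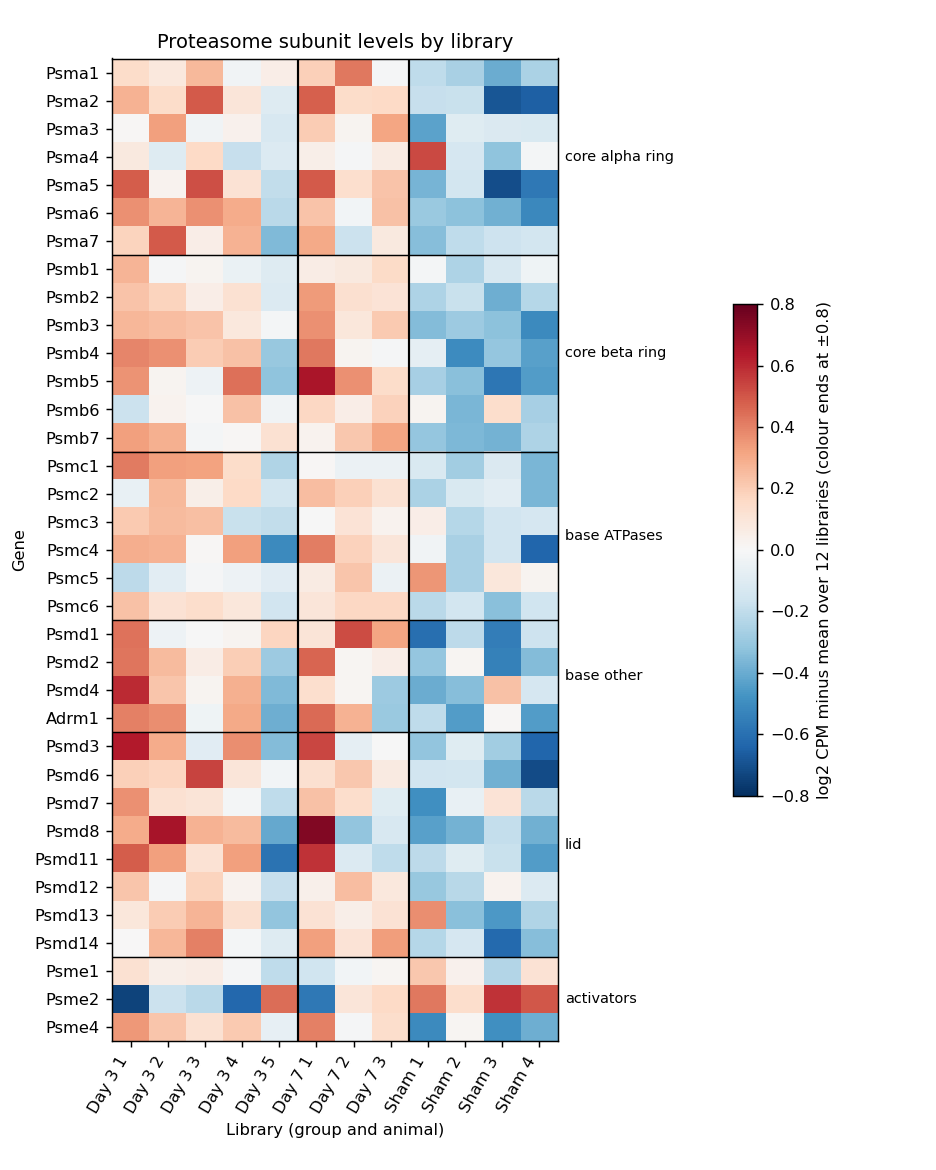
Level of each of the 35 genes in each of the 12 libraries, as log2 CPM minus the gene's mean over the 12 libraries (red higher, blue lower, colour ending at 0.8 on either side); columns are day 3, day 7 and sham libraries, rows are ordered by sub-complex. Most core, base and lid rows are red in day 3 libraries 1 to 4 and in day 7, blue in sham and in many cells of day 3 library 5, while Psme2 runs the other way.

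The libraries did not contribute evenly to that count. Day 3 library 1 exceeded the highest sham library in 28 of the 32 core, base and lid genes, and day 3 libraries 2, 3 and 4 in 26, 25 and 26. Day 3 library 5 exceeded it in 9, and it was the lowest day 3 library in 26 of the 32, among them all 8 lid genes. The share of all genes above the highest sham library was not counted for single libraries, so these counts have no background. A score for each sub-complex, the mean over its genes of log2 CPM relative to the gene's mean over the 12 libraries, shows the same split. For the core it was 0.23, 0.17, 0.16, 0.12 and -0.13 in day 3 libraries 1 to 5, 0.28, 0.10 and 0.16 in day 7 libraries 1 to 3, and -0.18, -0.26, -0.34 and -0.32 in sham libraries 1 to 4. With TMM scaling, core scores of all 8 hepatectomy libraries lay above those of all 4 sham libraries, with day 3 library 5 nearest to sham. Its summed core CPM (1079) was close to that of sham library 1 (1077). The TMM factors of these libraries were 0.957 and 1.12, so their order rests on that scaling. Scores under other scaling were not computed. For the lid the score was 0.29, 0.26, 0.23, 0.15 and -0.27 at day 3, 0.34, 0.03 and 0.02 at day 7, and -0.22, -0.18, -0.25 and -0.39 in sham. For the base it was 0.27, 0.20, 0.08, 0.13 and -0.22 at day 3, 0.20, 0.17 and 0.01 at day 7, and -0.17, -0.23, -0.16 and -0.27 in sham. Base and lid scores of day 3 library 5 lay inside the sham range, and those of the other 7 hepatectomy libraries above it. Without day 3 library 5, 21 of the 32 genes had no overlap with sham at day 3 (7.47% of all genes in that setting), and 0 members were called by edgeR. Without both day 3 library 5 and day 7 library 1, in each hepatectomy group the library least like its own group, edgeR called 9 members at day 3 with adjusted p-values of 0.0200 to 0.0459: Psma2, Psma5, Psma6, Psmb3, Psmb4, Psmb5, Psmd8 and Psmd11 higher, and Psme2 lower. That setting picks libraries by their likeness to their group and called 1005 genes in all. Without sham library 4 and day 3 library 1, the libraries with Alb and Xist, 30 of the 32 genes were positive at day 3, 10 had no overlap (3.33% of all genes in that setting) and 0 members were called, and the lid median was 0.27. Whatever sets day 3 library 5 apart was not tested.

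**Figure D2:**
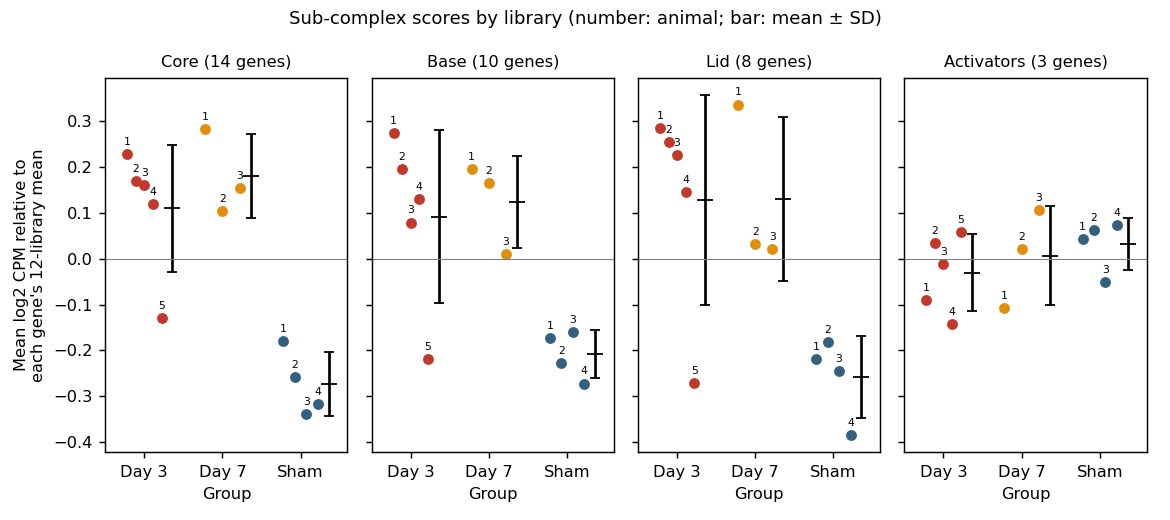
Sub-complex score of each library (vertical axis, mean log2 CPM relative to each gene's 12-library mean; points are libraries with the animal's number, black bars mean ± SD) for day 3, day 7 and sham, in panels for core, base, lid and activators. With TMM scaling, core scores of hepatectomy and sham libraries do not overlap. Day 3 library 5 sits among the sham libraries for base (-0.22) and lid (-0.27), and the activator scores overlap.

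In the beta ring of the core, Psmb3, a subunit without a proteolytic site, had the smallest p of all members at day 3 (ENSMUSG00000069744, mm39 chr11:97594225-97604327, plus strand). Psmb3 had 87.6, 86.7, 85.4, 77.4 and 72.2 CPM in day 3 libraries 1 to 5 and 94.0, 77.6 and 84.3 CPM in day 7 libraries 1 to 3, against 57.5, 59.6, 58.1 and 51.3 CPM in sham libraries 1 to 4. Every hepatectomy library was above every sham library, day 3 library 5 included. The log2 difference was 0.53 (SE 0.13) at day 3 and 0.59 (SE 0.15) at day 7, with edgeR adjusted p-values of 0.403 and 0.564.

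Of the 3 proteolytic subunits, Psmb5 and Psmb7 stood higher after hepatectomy and Psmb6 overlapped sham. Psmb5 (ENSMUSG00000022193, chr14:54851576-54855480, minus strand) had 88.3, 69.7, 66.9, 93.2 and 54.9 CPM at day 3 and 108, 88.5 and 75.9 CPM at day 7, against 57.1, 54.4, 45.97 and 50.4 CPM in sham. All 3 day 7 libraries and day 3 libraries 1 to 4 were above every sham library, and day 3 library 5 lay within the sham range. Psmb7, the trypsin-like subunit (ENSMUSG00000026750, chr2:38478048-38534100, minus strand), had 112, 109, 88.0, 89.8 and 96.7 CPM at day 3 and 91.0, 104 and 111 CPM at day 7, against 71.9, 69.4, 68.5 and 75.0 CPM in sham. The groups did not overlap on either day, and the sham libraries lay close together. Psmb6 (ENSMUSG00000018286, chr11:70416193-70418685, plus strand) had 81.2, 93.5, 91.4, 108 and 89.9 CPM at day 3 and 103, 95.2 and 104 CPM at day 7, against 93.2, 71.1, 100.9 and 76.3 CPM in sham. Sham itself was split, with libraries 1 and 3 among the hepatectomy values and libraries 2 and 4 below them. The log2 differences at day 3 were 0.52 for Psmb5 (SE 0.18), 0.48 for Psmb7 (SE 0.14) and 0.12 for Psmb6 (SE 0.15). At day 7 they were 0.81 (SE 0.21), 0.52 (SE 0.16) and 0.24 (SE 0.17), the value of Psmb5 being the largest of the 35. DESeq2 called Psmb5 and Psmb3 at day 7 (adjusted p = 0.0498 and 0.00838), among 70 genes in all, where edgeR did not (0.564 for both). Psmb7 overlaps Nek6 on the other strand by 6572 bases, and since the strandedness of the libraries is not given, reads of the pair could not be separated.

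In the alpha ring, the gate of the core, Psma6 was the most abundant member per length (91.8 ± 6.12 CPM per kb of exon in sham, SD, n = 4). Psma6 (ENSMUSG00000021024, chr12:55431007-55465240, plus strand) had 189, 178, 190, 181 and 127 CPM at day 3 and 172, 145 and 174 CPM at day 7, against 120, 117, 113 and 103 CPM in sham. All hepatectomy libraries were above sham, 4 of the day 3 libraries lay close together, and library 5 stood well below them. Its log2 difference was 0.61 at day 3 (SE 0.16) and 0.53 at day 7 (SE 0.18). Psma5 had the largest difference of all members at day 3, 0.65 (SE 0.20), from 33.7 ± 7.07 CPM at day 3 (SD, n = 5) and 21.5 ± 3.69 CPM in sham (SD, n = 4). Its level is uncertain, because the copy Psma5-ps held 449 to 805 counts per library, more than the 297 that Psma5 held where it was lowest. With both summed, the log2 difference was 0.57 (SE 0.17, edgeR adjusted p = 0.403). Psma4 was the member of the ring that did not stand higher: 89.3, 78.8, 94.4, 74.3 and 78.6 CPM at day 3 and 87.5, 83.9 and 88.5 CPM at day 7, against 122, 77.2, 67.8 and 83.5 CPM in sham. Its sham values enclosed those of both days.

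In the base, Psmd1, a large scaffold subunit, had the smallest p on both days (ENSMUSG00000026229, chr1:85992109-86066874, plus strand). Psmd1 had 141, 102, 104, 106 and 118 CPM at day 3 and 112, 150 and 130 CPM at day 7, against 68.7, 90.0, 71.2 and 93.0 CPM in sham. The groups did not overlap on either day, and here day 3 library 5 was the second highest of its group. The log2 differences were 0.50 (SE 0.17) and 0.69 (SE 0.19). Psmc1, an ATPase, had 165, 155, 155, 137 and 105 CPM at day 3 and 125, 120 and 120 CPM at day 7, against 114, 102, 114 and 96.2 CPM in sham. Day 3 libraries 1 to 4 were the highest, day 7 lay between them and sham, and library 5 fell inside the sham range. Psmc1 had a log2 difference of 0.43 at day 3 (SE 0.16) and 0.19 at day 7 (SE 0.18). The ATPase Psmc2 was second in the base by p at day 7. Psmc2 had 70.2, 87.5, 75.7, 81.6 and 66.0 CPM at day 3 and 86.6, 83.6 and 79.7 CPM at day 7, against 61.4, 67.3, 69.1 and 56.7 CPM in sham. Day 7 did not overlap sham, and day 3 did through library 5. Its log2 difference at day 7 was 0.39 (SE 0.16). Among the other ATPases, Psmc5 had log2 differences of -0.16 (SE 0.15) at day 3 and 0.02 (SE 0.17) at day 7. The ubiquitin receptors Psmd4 and Adrm1 had differences of 0.32 (SE 0.21) and 0.42 (SE 0.21) at day 3. At day 7 these were 0.10 (SE 0.24) and 0.44 (SE 0.24).

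In the lid, Psmd14 encodes the deubiquitinating enzyme that strips the chain from the substrate (ENSMUSG00000026914, chr2:61542038-61630721, plus strand). Psmd14 had 59.0, 70.9, 78.0, 58.3 and 55.02 CPM at day 3 and 74.1, 63.7 and 74.5 CPM at day 7, against 50.3, 53.8, 38.4 and 46.6 CPM in sham. The groups did not overlap on either day, although the lowest day 3 library and the highest sham library were close. The structural subunit Psmd6 had 71.5, 70.8, 91.3, 67.2 and 61.8 CPM at day 3 and 68.6, 72.9 and 65.8 CPM at day 7, against 56.5, 56.8, 48.1 and 38.2 CPM in sham. It too did not overlap sham. The log2 differences were 0.44 (SE 0.16) and 0.58 (SE 0.18) for Psmd14 and 0.54 (SE 0.17) and 0.47 (SE 0.19) for Psmd6. Psmd8 had the largest lid difference at day 3, 0.60 with an SE of 0.25, and its libraries ranged from 117 to 245 CPM at day 3 and from 124 to 259 CPM at day 7, against 115 to 136 CPM in sham. Psmd13 overlaps Gm15542 by 1195 bases on the same strand, a gene that averaged 841 counts, so its value (0.22, SE 0.19, at day 3) is uncertain.

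**Figure D3:**
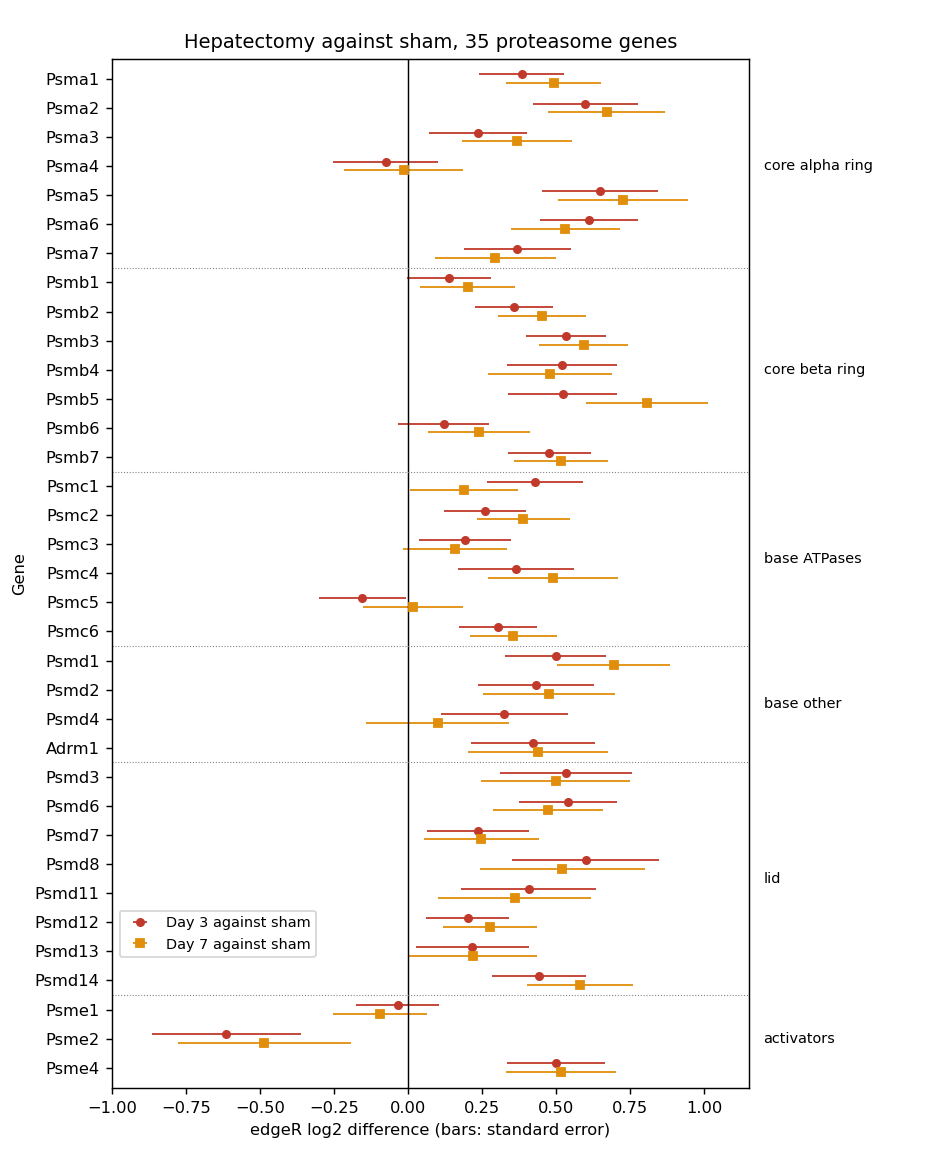
edgeR log2 difference (horizontal axis, points) with its standard error (bars) of each of the 35 genes, for day 3 against sham (circles) and day 7 against sham (squares), by sub-complex. Nearly all core, base and lid points lie right of 0, with Psma4 and Psmc5 near it, and in the activators Psme4 lies right and Psme2 left.

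At day 7, the core, base and lid again stood above sham, and more of them without overlap. Of the 32 genes, 31 had a positive log2 difference (50.7% of all genes tested), with a median of 0.44 or 1.36-fold against 0.01 over all genes. The medians were 0.48 for the core, 0.37 for the base and 0.41 for the lid, the last being 0.27 without day 7 library 1. In 21 of the 32 every day 7 library lay above every sham library (2.83% of all genes), and in 0 below (4.07%). Scaled by library totals alone, 13 of the 32 were higher without overlap, with the share over all genes not counted for that scaling. With TMM scaling the 21 were 11 of the 14 core genes, 6 of the 10 base genes and 4 of the 8 lid genes. With 3 day 7 libraries against 4, a gap between groups is met more easily than with 5 against 4, as the shares over all genes show. By edgeR 0 of 35 members passed an adjusted p of 0.05 (lowest 0.564), and 0% of all genes did. At an unadjusted p under 0.05, 16 members were higher, against 3.51% of all genes, and 0 lower, against 2.75%. Day 7 library 1 had the highest score of the group in each of core, base and lid. The other 2 libraries exceeded the highest sham library in 24 of the 32 genes each, with the share over all genes not counted. Both contrasts use the same sham libraries.

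With all libraries kept, day 7 and day 3 differed little. Of the 32 genes, 22 had a positive log2 difference (52.8% of all genes), with a median of 0.06, and 0 had groups without overlap (2.72% of all genes). By edgeR 0 of 35 members were called (0% of all genes), every adjusted p was 0.999, and 0 members had an unadjusted p under 0.05 (3.34% of all genes); DESeq2 also called 0 members. The medians were 0.07 for the core, 0.05 for the base and -0.02 for the lid. The largest positive difference was that of Psmb5, 0.28 (SE 0.20), with 90.8 ± 16.2 CPM at day 7 (SD, n = 3) and 74.6 ± 15.8 CPM at day 3 (SD, n = 5). The largest negative one was that of Psmc1, -0.24 (SE 0.18), with 121 ± 2.78 CPM at day 7 and 143 ± 23.8 CPM at day 3. The 2 genes with the smallest p in each of core, base and lid also included Psma3 (0.13, SE 0.18), Psmd1 (0.20, SE 0.18), Psmd14 (0.14, SE 0.17) and Psmd12 (0.07, SE 0.15). The alpha subunit Psma3 had 26.03, 22.9 and 28.1 CPM at day 7, against 22.8, 28.4, 22.1, 23.2 and 20.7 CPM at day 3. The lid subunit Psmd12 had 67.7, 78.2 and 70.0 CPM at day 7, against 76.8, 65.4, 74.7, 67.1 and 57.9 CPM at day 3. For Psma3 day 7 lay inside the day 3 range, and for Psmd12 day 7 library 2 (78.2 CPM) lay above it. These SEs leave room for differences of either sign, so equality of the days was not shown. Without day 3 library 5 and day 7 library 1, edgeR called 441 genes in all between the days, and 13 of the 32 were positive. The median of all members was then -0.07.

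The activators did not move as a set. Psme4, a single-chain activator that caps the core without ATPases (ENSMUSG00000040850, chr11:30721726-30830362, plus strand), had 121, 111, 104, 110 and 90.9 CPM at day 3 and 126, 94.6 and 105 CPM at day 7, against 67.0, 96.4, 67.7 and 72.8 CPM in sham. Sham library 2 reached into the range of both days, and the other sham libraries lay below. Its log2 difference was 0.50 (SE 0.17) at day 3 and 0.52 (SE 0.19) at day 7. Psme2, one of the interferon-inducible pair (ENSMUSG00000079197, chr14:55824898-55828571, minus strand), had 13.9, 20.7, 20.1, 15.1 and 31.8 CPM at day 3 and 15.7, 24.9 and 26.1 CPM at day 7, against 31.3, 25.7, 34.8 and 32.9 CPM in sham. Day 3 libraries 1 to 4 lay below every sham library, and day 3 library 5 lay among them. Psme2 had the largest negative differences of the 35, -0.61 (SE 0.25) and -0.49 (SE 0.29), with edgeR adjusted p-values of 0.426 and 0.852. These values are uncertain, because the copy Psme2b held 588 to 1923 counts per library. Summed with Psme2b, the log2 difference was -0.58 at day 3 (SE 0.23) and -0.15 at day 7 (SE 0.27). Its partner Psme1 (ENSMUSG00000022216, chr14:55815580-55818987, plus strand) had 73.8, 70.1, 70.6, 67.3 and 58.9 CPM at day 3 and 60.6, 66.8 and 68.6 CPM at day 7, against 78.8, 69.4, 57.6 and 73.5 CPM in sham. All 3 groups overlapped, and the differences were -0.04 (SE 0.14) and -0.10 (SE 0.16).

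The inducible catalytic subunits averaged below sham on both days, where the constitutive ones they replace averaged above it. Psmb9, which replaces Psmb6, had 8.01, 7.16, 12.0, 9.15 and 17.4 CPM at day 3 and 5.99, 25.7 and 20.3 CPM at day 7, against 29.5, 20.1, 20.5 and 26.5 CPM in sham. All day 3 libraries were below all sham libraries, and at day 7 library 1 was the lowest of the 12 while the other 2 overlapped sham. The log2 differences at day 3 were -1.17 for Psmb9 (SE 0.38), -0.60 for Psmb10 (SE 0.25) and -0.35 for Psmb8 (SE 0.17), with edgeR adjusted p-values of 0.403, 0.426 and 0.46598. At day 7 they were -0.48 (SE 0.43), -0.16 (SE 0.28) and -0.17 (SE 0.19), and without day 7 library 1 they were -0.04, 0.11 and -0.03. Psmb10 had 22.6, 16.9, 35.1, 28.05 and 32.02 CPM at day 3 and 23.1, 47.1 and 39.9 CPM at day 7, against 41.4, 40.97, 33.8 and 47.6 CPM in sham. Psmb8 had 31.6, 30.2, 31.9, 36.4 and 40.7 CPM at day 3 and 32.5, 38.8 and 45.1 CPM at day 7, against 51.003, 39.6, 34.8 and 49.4 CPM in sham. Both genes overlapped sham on both days. Of the 4 listed genes tested, 2 were lower at an unadjusted p under 0.05 at day 3 (4.97% of all genes), and 0 at day 7 (2.75%). Of the tissue-specific variants, testis-specific Psma8 stayed at or below 1.23 CPM, and thymus-specific Psmb11 was not analysed here. A ratio within a library does not depend on scaling. The log2 ratio of Psmb10 to Psmb7 was -2.31, -2.68, -1.32, -1.68 and -1.59 in day 3 libraries 1 to 5 and -1.98, -1.13 and -1.47 in day 7 libraries 1 to 3, against -0.79, -0.76, -1.02 and -0.66 in sham libraries 1 to 4. Every hepatectomy library was below every sham library. The difference was -1.11 at day 3 and -0.72 at day 7 (exact two-sided permutation p = 0.0159 and 0.0286). For Psmb9 to Psmb6 the difference was -1.35 at day 3 and -0.95 at day 7 (exact p = 0.0159 and 0.0857), and -0.30 at day 7 without day 7 library 1. Day 7 library 2 (-1.89) lay inside the sham range of -2.30 to -1.53, and the other hepatectomy libraries lay below it. For Psmb8 to Psmb5 the difference was -0.84 and -0.96 (exact p = 0.0238 and 0.0286). Day 3 library 5 (-0.43) lay inside the sham range of -0.46 to -0.03, and the other hepatectomy libraries lay below it. Adjusted over the 9 ratio comparisons, each of these exact p-values was 0.0514, or 0.129 for Psmb9 to Psmb6 at day 7, so none passed 0.05. The smallest exact p these group sizes allow is 0.00794 at day 3 and 0.0286 at day 7. Between day 7 and day 3 the exact p-values of the 3 ratios lay between 0.339 and 0.732.

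B cell marker sums were high in many of the libraries with more Psmb9 and Psme2. The 5 B cell markers tested of 6 summed to 17.2, 12.8, 4.26, 8.27 and 161 CPM in day 3 libraries 1 to 5 and 5.36, 370 and 56.6 CPM in day 7 libraries 1 to 3, against 239, 18.3, 192 and 236 CPM in sham libraries 1 to 4. The libraries with high sums were those with more Psmb9 and Psme2, with sham library 2 an exception. Psmb10 and Psmb8 did not follow the sums throughout. Day 3 library 3, with the lowest sum, held 35.1 CPM of Psmb10, and day 3 library 4 held 36.4 CPM of Psmb8. Sham library 3 held 33.8 and 34.8 CPM of these genes. Ighm made up 335 of the 370 CPM of day 7 library 2, where Cd79a, Cd79b and Ms4a1 held 0.397, 0.992 and 0.331 CPM. In day 3 library 5 Ighm made up 139 of the 161 CPM, and these 3 genes held 0.994, 1.06 and 0.729 CPM. Of 5 T cell markers, 2 were tested, and they summed to at most 1.71 CPM in any library. The 5 macrophage markers summed to 806 to 2155 CPM at day 3, 886.5 to 4669 CPM at day 7 and 1045 to 2599 CPM in sham. Red blood cell markers summed to 1796 to 27790 CPM at day 3, 3943 to 13740 CPM at day 7 and 1474 to 4527 CPM in sham. Mesothelial markers summed to 507 to 816 CPM at day 3, 202 to 696 CPM at day 7 and 722 to 1073 CPM in sham. The part of these cell types in the proteasome values was not tested.

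**Figure D4:**
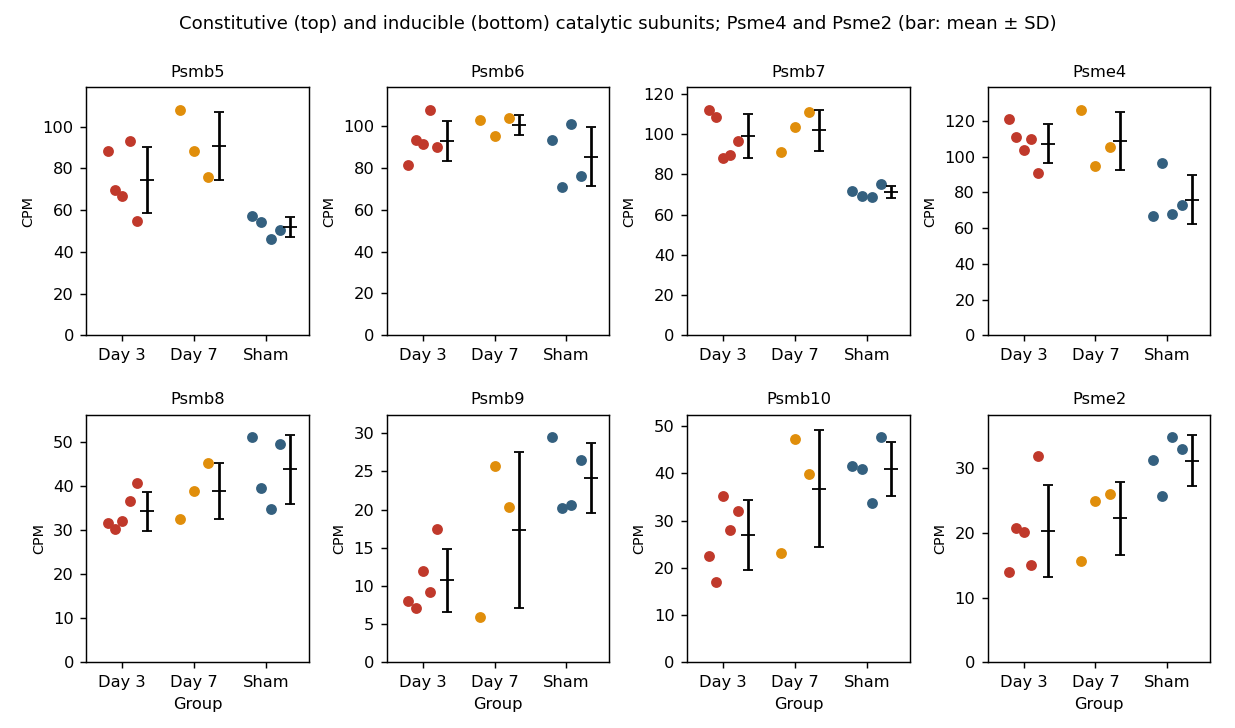
CPM in each library (points; black bars mean ± SD; vertical axes start at 0) at day 3, day 7 and sham for the constitutive catalytic subunits Psmb5, Psmb6 and Psmb7 (top), the inducible subunit that replaces each (Psmb8, Psmb9 and Psmb10, bottom), and the activators Psme4 (top) and Psme2 (bottom). Psmb7 does not overlap sham on either day, and all day 3 libraries of Psmb9 lie below sham.

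Genes that build, regulate or supply the proteasome did not show a common direction. In each list below 0 genes passed the edgeR test on either day. Of 8 assembly chaperones tested of 9 listed (Paaf1 was not analysed here), 7 had a negative difference at day 3 and 5 at day 7, with medians of -0.13 and -0.06. Pomp, which the beta ring needs to mature, had 64.1 ± 8.15 CPM at day 3 (SD, n = 5) and 73.5 ± 12.0 CPM at day 7 (SD, n = 3), against 78.3 ± 12.2 CPM in sham (SD, n = 4), and a log2 difference of -0.29 at day 3 (SE 0.16). Psmd10 and Psmd9, chaperones of the base, had differences of -0.32 (SE 0.23) and 0.28 (SE 0.23) at day 3. At day 7 Psmd10 had -0.27 (SE 0.26), the core chaperone Psmg4 -0.30 (SE 0.34) and Pomp -0.09 (SE 0.19). Without sham library 1, Psmd10 had -0.08 at day 3 and -0.02 at day 7, and without day 3 library 4 Psmd9 had 0.13. Of 7 further regulators and associated proteins, 6 were positive at day 3 and 7 at day 7, with medians of 0.10 and 0.16. The nuclear activator Psme3 had 120, 133, 112, 80.8 and 78.4 CPM at day 3 and 130, 90.4 and 95.03 CPM at day 7, against 73.5, 82.1, 70.5 and 73.6 CPM in sham. Day 3 libraries 4 and 5 fell within the sham range, and day 7 did not overlap it. Its differences were 0.48 (SE 0.19) and 0.49 (SE 0.22). Next by p were the inhibitor Psmf1 (0.35, SE 0.18) and the adaptor Ecpas (0.28, SE 0.20) at day 3, and Ecpas (0.26, SE 0.23) and the ubiquitin ligase Ube3c (0.16, SE 0.19) at day 7. Without sham library 1, Ecpas had 0.11 at day 3 and 0.09 at day 7, and Ube3c 0.04.

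Of 13 genes of the NRF1 pathway, 10 were positive on each day, with medians of 0.35 and 0.27. Nfe2l1 itself had 405, 371, 333, 379 and 530 CPM at day 3 and 354, 436 and 333 CPM at day 7, against 258, 457, 466 and 477 CPM in sham. The groups overlapped, and the log2 differences were -0.04 (SE 0.23) and -0.15 (SE 0.26). NRF1 is regulated after translation by cleavage and degradation, which RNA does not measure. Its small MAF partner Mafk had 91.6, 117, 61.1, 66.9 and 26.4 CPM at day 3 and 98.0, 23.7 and 26.6 CPM at day 7, against 25.9, 36.9, 27.4 and 31.4 CPM in sham. Day 3 libraries 1 to 4 and day 7 library 1 stood high, and the remaining hepatectomy libraries were at sham level. Maff, another small MAF gene, had the same split, with 63.6 to 169 CPM in day 3 libraries 1 to 4 and 7.89 CPM in library 5, and 145 CPM in day 7 library 1 and at most 8.53 CPM in the other 2. The sham libraries held 4.80 to 21.6 CPM of it. The log2 differences at day 3 were 1.26 for Mafk (SE 0.46) and 2.63 for Maff (SE 0.97), with edgeR adjusted p = 0.412 for both. At day 7 Maff had 2.00 (SE 1.02), and -0.66 without day 7 library 1. Nploc4, a cofactor that helps extract NRF1 from the endoplasmic reticulum, had 0.49 (SE 0.20) at day 3. At day 7 its partner Ufd1 had 0.33 (SE 0.18) and Mafg, the remaining small MAF gene, 0.46 (SE 0.24) or 0.16 without day 7 library 1. All 7 oxidative stress targets of NRF2, a relative that binds the same element, were positive on both days, with medians of 1.04 and 1.97. Of these, Hmox1, which degrades haem, had 536, 868, 679, 656 and 35.7 CPM at day 3 and 990, 60.1 and 371 CPM at day 7, against 155, 138, 40.9 and 29.1 CPM in sham. Day 3 library 5 and day 7 library 2 lay within the sham range. The log2 difference of Hmox1 at day 3 was 2.61 (SE 0.91), with 1.08 (SE 0.44) for Txnrd1, a thioredoxin reductase, and 0.58 (SE 0.20) for Gclm, of glutathione synthesis. At day 7 Gclm had 0.79 (SE 0.22), Nqo1, a quinone reductase, 1.97 (SE 0.58), and Srxn1, a sulfiredoxin, 2.30 (SE 0.61) or 0.82 without day 7 library 1. Of 10 genes of ubiquitin and its shuttles, 7 were positive at day 3 and 5 at day 7, with medians of 0.09 and 0.11. The shuttle genes Rad23b and Ubqln4 had 0.38 (SE 0.18) and -0.56 (SE 0.21) at day 3. At day 7 Rad23b had 0.31 (SE 0.21).

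Levels per kb of exon placed the members in an order that sub-complexes do not share. After Psma6 came, in sham, Psmb5 (57.8 ± 5.39 CPM per kb), Psmb4 (55.6 ± 7.503), Psmc1 (55.1 ± 4.55) and Psmc5 (53.1 ± 9.22), which did not differ beyond their SDs (n = 4). The lowest levels were those of Psma3 (5.12 ± 0.53), Adrm1 (8.29 ± 1.30), Psme4 (9.06 ± 1.65) and Psmd11 (9.35 ± 0.95), and the last 3 did not differ beyond their SDs either. At day 3 Psma6 and Psma3 were again the ends of the order, with 140 and 6.02 CPM per kb, and at day 7 with 133 and 6.60 CPM per kb. Lengths are unions of all annotated exons, which makes genes with many long transcript models look lower.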

How the data were processed

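RNA was measured in 12 libraries of eWAT. The labels name polyA RNA and the series design total RNA, and strandedness is not given in the sources used here. Per the submitters' processing notes, Partek, STAR, DESeq2 and build mm39 were used. The authors deposited expected counts per gene (28.6% to 39.7% of a library's values were not whole), and a normalized count signal made by the authors by scaling each sample, used here only for matching. The deposited table also holds the authors' p-value, false discovery rate and log2 ratio against sham. Per-sample lines did not stand beside their genes, so each of 18086 lines was assigned by its mean and maximum over the 12 samples, which the table also gives per gene (relative tolerance 3e-05), with the geometric mean within 0.01; 18070 matched 1 gene and 16 were settled by order. The authors' group means then lay within 5% for 100% of genes compared.

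Rounded counts were tested with edgeR 4.0.16 (R 4.3.3, statmod 1.5.0): filterByExpr with a minimum count of 10, TMM scaling, robust quasi-likelihood F-test on all 12 libraries with Benjamini-Hochberg adjustment over 17012 genes and a threshold of 0.05. The fit was also run on simulated counts with a capped spread, no outlying library and planted changes larger than the member medians. That run does not show how the fit performs on these libraries. P-values of single genes rest on the spread between animals. CPM is TMM-scaled. Scores use a prior count of 2. Ratios of 2 genes use counts plus 0.5 and an exact two-sided permutation test over libraries. Exon lengths are from GENCODE M21. Alternatives were DESeq2 1.42.0, limma 3.58.1 (voom with quality weights), other scaling, no filter, 2 groups only, a replicate block, libraries left out and gene copies merged. Values in every library are given for the catalytic subunits, the activators and the 2 core, base and lid genes with the smallest p in a comparison; up to 3 genes of each pathway list are named, and some that the rule names are not reported here. Other members with values (Psma4, Psmc5, Psmd8, Psmd4, Adrm1, Psmd13) were chosen after their values were seen. The members and lists were chosen with earlier results of these data known.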

Additional observations from a re-analysis of the deposited data

Results flagged for a closer look

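Of 148 groups of 4 or 5 libraries checked, 8 held a library whose gap to the nearest other one was large for the range of its group (Dixon's criterion, which chance meets in about 1 in 20 groups). Day 3 library 5 was such a library for Psma6 (127 CPM, with 178 to 190 CPM in the other day 3 libraries) and for the core chaperone gene Psmg4 (4.91 CPM, with 9.72 to 11.2 CPM in the others). It was also one for the scores of the lid (-0.27), of the base ATPases (-0.22) and of the core, base and lid together (-0.19). Sham library 1 was such a library for Psma3 (16.8 CPM, with 20.8 to 21.2 CPM in the other sham libraries), for Pomp (96.6 CPM, with 71.3 to 73.4 CPM) and for Nfe2l1 (258 CPM, with 457 to 477 CPM).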

How the results depend on the processing

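At day 3 against sham, edgeR called 1 gene in all; DESeq2 called 122 genes and 2 members, voom 0 genes, and leaving out single libraries gave 0 to 2 genes. At day 7 against sham, edgeR called 0; DESeq2 called 70 genes and 2 members, voom 15, and single libraries left out gave 0 to 3. Between day 7 and day 3, edgeR called 0; DESeq2 called 22, voom 2, and single libraries left out gave 0 to 4. Without day 3 library 5 and day 7 library 1 the counts were 1005 genes and 9 members at day 3, 17 genes at day 7 and 441 genes between the days. That setting also gave 22 members higher without overlap at day 3 (7.75% of all genes in that setting). Between the days, 7 members were lower without overlap, with the share over all genes not counted, and 13 of 32 were positive. Member medians were 0.32 at day 7 against sham and -0.0689 between the days. Without sham library 4 and day 3 library 1, edgeR called 0 genes at day 3. In that setting 1 member was higher without overlap between the days, with the share over all genes not counted. Scaling by library totals alone shifted the median of all genes to -0.13 at day 3 and -0.09 at day 7. It gave a median of 0.27 for all members and 0.32 for the core at day 3. Higher without overlap were 2 members at day 3 and 13 at day 7, with the shares over all genes not counted. The median of all members stood 0.40 (day 3) and 0.43 (day 7) above that of all genes. Leaving out single libraries gave 9 to 21 members higher without overlap at day 3 and 0 to 1 between the days, and 0 to 1 lower at day 3 and 0 to 2 between the days. The share over all genes was 7.47% where 21 were higher at day 3, and was not counted for the other single libraries.

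Replicate numbers did not pair the libraries (correlations of deviations from -0.37 to 0.19), and a fit with a replicate block called 0 genes at day 3, gave 13 positive of 32 between the days, and Psme1 0.0163 at day 3, Psme4 -0.0476 and Nfe2l1 0.0358 between the days. Small differences changed sign elsewhere. With voom, Psme1 had 0.00024 at day 3, Pomp 0.026 and Maff -0.0311 at day 7, and Psme4 -0.0631 between the days. Without day 3 library 5 and day 7 library 1, Psme1 had 0.0123 at day 3, Psmb10 0.0903, Pomp 0.0249 and Maff -0.68 at day 7, and Psme4 -0.16, Nfe2l1 0.0496 and the ratio of Psmb8 to Psmb5 0.31 between the days. Without sham library 4 and day 3 library 1, Nfe2l1 had 0.0301 at day 3. With single libraries left out, the ranges at day 3 were -0.12 to 0.0228 for Psme1 and -0.21 to 0.0259 for Nfe2l1. At day 7 they were -0.38 to 0.11 for Psmb10, -0.21 to 0.0502 for Pomp and -0.66 to 2.50 for Maff. Between the days they were -0.0786 to 0.011 for Psme1, -0.0846 to 0.11 for Psme4, -0.23 to 0.0427 for Nfe2l1, -0.35 to 0.14 for the ratio of Psmb8 to Psmb5 and -0.0469 to 1.06 for that of Psmb9 to Psmb6. The causes were not tested. The other 531 values of main results stayed within their limits, as did 1740 values of single genes and ratios. Another 17 moved below a p of 0.05, among them Srxn1 at day 7 with DESeq2, and 31 moved above it, all of them exact p-values of the ratios with libraries left out. At day 7 against sham, with any library of either group left out, no exact p under 0.05 can be reached. The moves in those settings were therefore fixed by the group sizes and say nothing about the ratios.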
